A study of Homo sapiens with 6 samples.

Results

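The regions described here are long stretches of the genome of HepG2 cells in which no peak of the UHRF1 tandem Tudor domain (TTD) was listed. They were chosen by the positions of the peaks themselves. On chromosomes 1 to 22, each interval from the end of a TTD peak to the start of the next was measured, intervals of 500 kb or more were taken, and those that spanned a centromere or an assembly gap of 100 kb or more were set aside. Of 31144 intervals between consecutive peaks, 869 reached this length. Set aside were 25 at centromeres and 8 at assembly gaps, and the remaining 836 stretches made up 2.68% of all intervals. Sequence before the first and after the last peak of a chromosome lies between no peaks and was not counted.

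The peaks were measured by CIDOP, in which a reading domain fused to glutathione S-transferase (GST) replaces the antibody of a ChIP experiment. GST-tagged TTD of human UHRF1 was incubated with native mononucleosomes, released by micrococcal nuclease from untreated HepG2 cells, an established line from a human hepatoblastoma. The series held 6 libraries, with biological duplicates of the TTD CIDOP, of an H3K9me2 ChIP and of the input, and the values here come from the pooled list of 31569 TTD peaks, of which 31166 lay on the autosomes. This list carries no score, no replicate error and no depth, so the lack of a peak holds only for the cutoff at which it was called, and input and H3K9me2 signals were not analysed here.

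UHRF1 brings the maintenance DNA methyltransferase DNMT1 to newly replicated DNA, and its TTD binds the tail of histone H3 methylated at lysine 9. The study asked how its binding relates to H3K4me1, a mark typical of enhancers. Enhancers are spread unevenly along chromosomes. AT-rich, gene-poor sequence, which includes the gene deserts, is often packed at the nuclear lamina and replicated late, while GC-rich sequence is dense in short, widely expressed genes.

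Both AT-rich, gene-poor and GC-rich, gene-dense stretches occurred among the 836, and short samples of sequence show the difference in base composition. Contact with the lamina, replication time and expression were not measured here. The samples below are the middle 300 bases of the longest stretches, on chromosomes 21 and 11, of the peak at the left edge of the longest stretch, and of the stretch with the most genes, on chromosome 16, which was added after its values were seen. All are given 5′ to 3′ on the plus strand of hg38, and capitals mark CpG, the dinucleotide that DNMT1 methylates.
Middle of the longest stretch, chr21:21674656-21674955, in an intron of the lncRNA ENSG00000237527: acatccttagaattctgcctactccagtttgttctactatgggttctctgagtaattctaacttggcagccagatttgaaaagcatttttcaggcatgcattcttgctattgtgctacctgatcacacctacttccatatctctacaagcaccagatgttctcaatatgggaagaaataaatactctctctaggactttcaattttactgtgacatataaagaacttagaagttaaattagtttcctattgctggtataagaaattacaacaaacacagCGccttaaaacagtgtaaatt
Middle of the peak at its left edge, chr21:17796241-17796540, in introns of C21orf91 and of the lncRNA ENSG00000244676: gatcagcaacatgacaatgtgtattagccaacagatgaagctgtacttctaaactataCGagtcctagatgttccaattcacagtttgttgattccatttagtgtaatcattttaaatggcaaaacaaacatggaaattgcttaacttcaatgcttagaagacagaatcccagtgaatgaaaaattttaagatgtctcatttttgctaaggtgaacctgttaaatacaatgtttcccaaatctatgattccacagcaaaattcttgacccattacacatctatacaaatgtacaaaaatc
Middle of the next longest stretch, chr11:39399981-39400280, intergenic: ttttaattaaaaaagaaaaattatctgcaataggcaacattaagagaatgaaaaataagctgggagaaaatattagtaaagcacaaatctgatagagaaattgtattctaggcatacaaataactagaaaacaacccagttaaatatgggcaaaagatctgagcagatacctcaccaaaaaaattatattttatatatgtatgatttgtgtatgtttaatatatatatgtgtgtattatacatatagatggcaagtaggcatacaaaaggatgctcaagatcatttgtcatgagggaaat
Middle of the stretch with the most genes, chr16:1493911-1494210, in an intron of TELO2: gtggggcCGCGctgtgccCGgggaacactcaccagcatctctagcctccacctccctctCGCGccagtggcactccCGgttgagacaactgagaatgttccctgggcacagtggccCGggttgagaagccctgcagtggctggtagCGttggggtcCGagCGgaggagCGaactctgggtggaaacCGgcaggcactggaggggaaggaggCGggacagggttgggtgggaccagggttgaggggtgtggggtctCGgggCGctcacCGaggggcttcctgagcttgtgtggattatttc
The samples from the stretches on chromosomes 21 and 11 had a GC content of 35.7% and 28.0% and held 1 and 0 CpG. The peak beside the longest stretch was similarly AT-rich and also held 1 CpG, whereas the sample from the gene-dense stretch on chromosome 16 had 65.3% GC and 16 CpG. Of the peak at the left edge of the stretch on chromosome 11, the middle 300 bases lay in exons annotated to IFTAP or RAG2, and their sequence is not shown. They had 59.3% GC and 18 CpG, so the samples from the edge peaks differed widely. Over all 1524 peaks at the edges, GC content was 42.0%.

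The 836 stretches added up to 862 Mb and held 31.2% of the 2756 Mb of assembled autosomal sequence. Their median length was 765 kb (interquartile range 612 to 1140 kb), against a median of 22555 bp over all intervals. Stretches of 1 Mb or more numbered 286 and covered 488 Mb, 67 reached 2 Mb and 18 reached 3 Mb. The length distribution ran through the threshold without a break, as the plot of interval lengths shows. The shortest stretches measured 500820, 501190 and 501650 bp, and the longest intervals left out measured 498940, 499270 and 499670 bp.

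**Figure D1:**
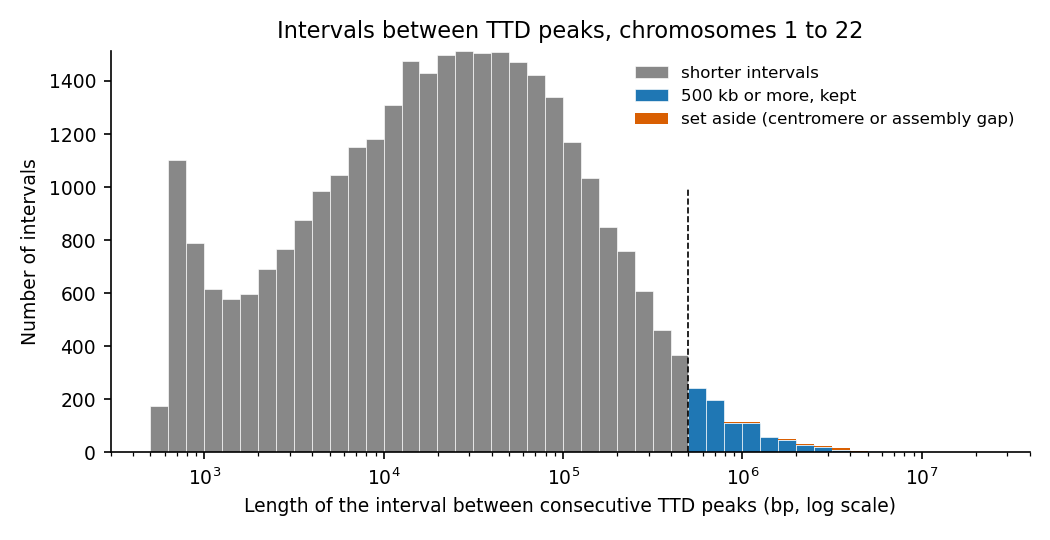
Lengths of the 31144 intervals between consecutive TTD peaks on chromosomes 1 to 22 (horizontal axis in bp, log scale, bars 0.1 log10 units wide) against their number (vertical axis). The 836 stretches of 500 kb or more (blue, right of the dashed line) form the upper tail of a distribution with a median of 22555 bp, and the 33 intervals set aside are in orange.

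The longest stretch spanned 7.76 Mb of chromosome 21 (chr21:17797121-25552490) at a GC content of 35.3%. It held 45 lncRNA genes but only 3 protein-coding genes wholly inside. These were NCAM2, a neural cell adhesion molecule, CHODL, a membrane lectin, and TMPRSS15, the intestinal protease that activates trypsinogen. The 5.61 Mb stretch on chromosome 11 (chr11:36595781-42204480) held LRRC4C, a synaptic adhesion protein, as the only protein-coding gene wholly inside. On chromosome 13, a stretch of 5.59 Mb (chr13:52852651-58446880) held 7 genes, among them PCDH17, a protocadherin, OLFM4, a secreted glycoprotein of intestinal crypts, and PRR20C. The 5.42 Mb stretch on chromosome 4 (chr4:27283521-32699840) contained the protocadherin PCDH7 as its only protein-coding gene.

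The other stretches among the 10 longest had a similar content. The 5.30 Mb stretch on chromosome 10 contained SORCS3 and SORCS1, neuronal sorting receptors, and CFAP58, a protein of cilia and flagella. In the 4.53 Mb stretch on chromosome 9 lay ELAVL2, a neuronal RNA-binding protein, DMRTA1 and the sperm protein gene IZUMO3. PCDH9, which encodes a protocadherin, was the only protein-coding gene in 3.89 Mb of chromosome 13. A 3.69 Mb stretch on chromosome 3 held 6 genes, with the contactins CNTN4 and CNTN6 and the interleukin receptor gene IL5RA as the longest. In the 4.36 Mb stretch on chromosome 4, no protein-coding gene lay wholly inside, although 2 genes had their start sites there. The GC content of these 10 stretches ran from 34.7% to 38.6%, below the autosomal value of 41.0%.

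Over all stretches, the GC content was 38.8%. It was 41.6% in intervals of 250 to 500 kb, 42.2% in intervals of 50 to 250 kb and in shorter ones, and 42.8% in the peaks. GC content was not used to choose the stretches, but it varies slowly along chromosomes, so neighbouring regions are not independent and no test was made. CpG reached 0.217 of the frequency expected from base composition in the stretches, 0.241 over all autosomes and 0.209 in the peaks. Exons of protein-coding genes covered 1.80% of the stretches, against 3.80% of the autosomes. The stretches held 3.36 protein-coding start sites per Mb, below the 7.29 of intervals of 250 to 500 kb, the 11.5 of intervals under 50 kb and the 6.93 of all autosomes. For lncRNA genes the density was 4.84 start sites per Mb, against 6.67 over the autosomes.

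Of 19111 autosomal protein-coding genes, 2603 lay wholly inside a stretch, which is 13.6% (95% Wilson interval 13.1 to 14.1%), 559 were cut by an edge and 15949 lay outside. Wilson intervals here cover counting error only, and genes of a cluster are not independent. Of 18390 lncRNA genes, 4023 or 21.9% (21.3 to 22.5%) were inside, and the share was 23.3% for processed pseudogenes, 20.3% for miRNA genes and 12.9% for snoRNA genes. Thus every gene type counted had a smaller share inside than the 31.2% of sequence, except the variable segments of antigen receptor loci. Of the immunoglobulin variable genes, 49 of 145 (33.8%, 26.6 to 41.8%) were inside, and of the T cell receptor variable genes 57 of 107 (53.3%, 43.9 to 62.4%). Protein-coding genes inside were shorter than all such genes, with a median of 18.7 kb against 27.9 kb, but this held for stretches with 10 or more genes (10.8 kb) and not for those with 5 to 9 (30.1 kb) or 1 to 4 (65.4 kb). The 559 genes cut by an edge had a median of 177 kb, so counting only whole genes as inside leaves out many long ones. A promoter poor in CpG, with less than 0.5 of the expected frequency in the 1 kb around the start site, was found for 41.3% (39.4 to 43.2%) of the genes inside and for 33.3% of all. The share was 32.8% in stretches with 1 to 4 genes, 42.1% with 5 to 9 and 45.3% with 10 or more. Without olfactory receptor genes the share was 37.9% of the genes inside and 31.9% of all.

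Protein-coding genes were spread very unevenly over the stretches. No such gene lay wholly inside 332 stretches (39.7%), and 163 stretches, with 143 Mb in all, touched none. Another 367 stretches held 1 to 4 genes and 75 held 5 to 9. The remaining 62 stretches held 10 or more, and in these 51.3 Mb lay 1412 genes, or 54.2% of all genes inside. GC content differed along this order. Its median was 36.8% in stretches without a gene, 38.4% with 1 to 4, 41.3% with 5 to 9 and 50.8% with 10 or more, and 53 of these 62 were above the autosomal value. Gene-dense stretches, which were chosen by their number of genes, had 28.4 protein-coding start sites per Mb, and their genes had a median length of 10.8 kb. They lay within 5 Mb of a chromosome end in 21 of 62 cases (33.9%), against 9.21% of all stretches. The share for gene-dense sequence outside the stretches is not given here, so this position is not shown to be particular to gene-dense stretches.

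**Figure D2:**
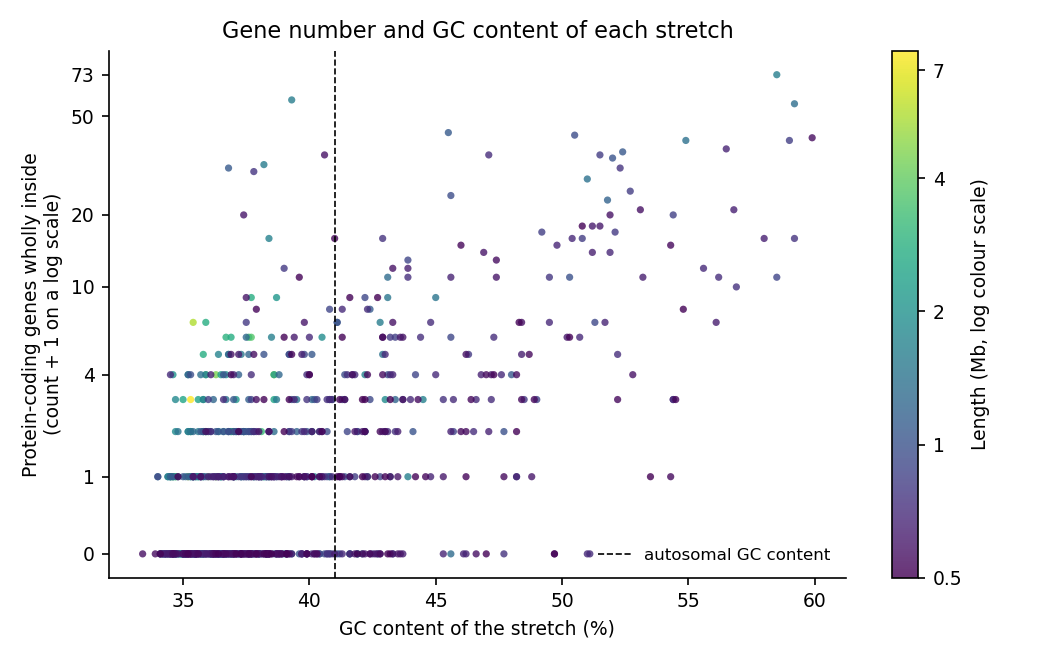
GC content (horizontal axis, percent) and number of protein-coding genes wholly inside (vertical axis, count plus 1 on a log scale) for each of the 836 stretches, coloured by length. The longest stretches sit below the autosomal GC content of 41.0% (dashed line) with few genes, while most of the 62 stretches with 10 or more genes sit above it, up to 59.9% GC.

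The same pattern was seen when the autosomes were divided into 100 kb windows, each counted as inside when at least 50 kb of it lay in stretches. Of the windows in the lowest group of 5 equal groups by GC content (31.2 to 36.7%), 66.0% lay in stretches. The share fell to 36.1%, 22.3% and 16.0% in the next groups and was 16.4% in the highest (44.8 to 64.0%). In the lowest group, windows inside stretches had 0.776 protein-coding start sites per Mb and windows elsewhere 2.72. In the fourth group (41.1 to 44.8%) the values were 4.36 and 8.62, and in the highest 15.7 and 16.8, so that the densities were close in the highest group alone.

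**Figure D3:**
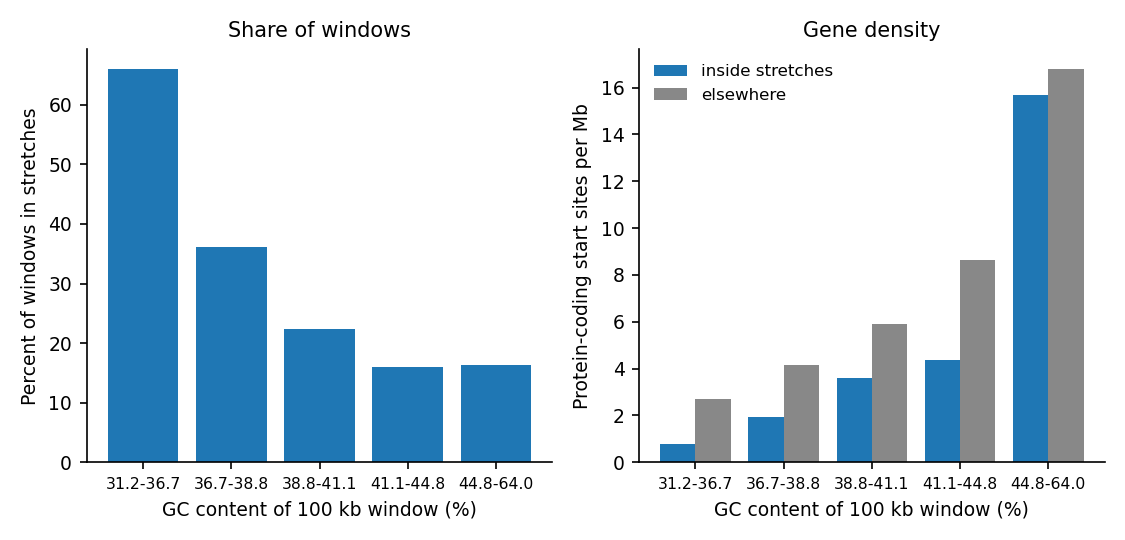
Windows of 100 kb in 5 equal groups by GC content (horizontal axes), with the percent of windows in stretches (left) and the protein-coding start sites per Mb inside and outside stretches (right). The share in stretches falls from 66.0% to 16.4%, and the gene densities inside and elsewhere are 0.776 and 2.72 in the lowest group and 15.7 and 16.8 in the highest.

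The gene-dense stretches are named here after their values were seen. The stretch with the most genes, 73 in 1.60 Mb (chr16:691661-2296460) at 58.5% GC, held the tuberous sclerosis gene TSC2, the polycystin gene PKD1 and the ribosomal protein gene RPS2. On chromosome 19, a stretch of 1.33 Mb (chr19:606091-1935060) held 56 genes at 59.2% GC, among them STK11, a kinase upstream of AMPK, GPX4, the lipid hydroperoxide-reducing peroxidase, and POLR2E, an RNA polymerase II subunit. Another 1.38 Mb of chromosome 19 (chr19:2865301-4246050) contained 40 genes, including EEF2, the translation elongation factor, and CREB3L3, a transcription factor of liver and intestine. Near the end of chromosome 1, 0.829 Mb (chr1:861751-1690450) held 40 genes with DVL1, a mediator of Wnt signalling, and ISG15, an interferon-induced modifier. Chromosome 19 alone supplied 17 of the 62 gene-dense stretches and 435 of their genes, followed by chromosome 1 with 10 stretches and 209 genes.

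Some gene-dense stretches at lower GC content held clusters of related genes. In a stretch of 1.59 Mb on chromosome 11 (chr11:4135251-5720810; 39.3% GC), 38 of the 58 genes encoded olfactory receptors, and the beta-globin genes HBB, HBD, HBG1, HBG2 and HBE1 lay among them. A part of the clustered protocadherins filled 0.577 Mb of chromosome 5 (chr5:140639001-141215670; 40.6% GC) with 28 of its 35 genes, and hair keratin-associated proteins made up 29 of the 31 genes in 1.08 Mb of chromosome 21 (chr21:29717971-30794400; 36.8% GC).

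Sequence present in more than 1 copy can escape unambiguous mapping, and such sequence was measured in the reference as the percent of words of 128 bases that occur more than once. It was 1.86% in the stretches, 1.61% in intervals of 250 to 500 kb and 2.37% in the peaks. The median over stretches was 0.758%, and 21 stretches reached 10%, with 19.4 Mb and 144 genes. Of the stretches with 10 or more genes, 3 reached this level. The highest value among them was 66.1%, in 1.08 Mb of chromosome 8 (chr8:7157191-8234650), which held 14 beta-defensin genes and the FAM90A family. The stretch with the PRAMEF genes on chromosome 1 had 30.5%. For these the part of mapping and of the removed blacklist in the lack of peaks was not tested.

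Gene families, counted from a list of names, differed widely in the share of members wholly inside, to be read against the 13.6% of all protein-coding genes. Of the 16 autosomal subunits of the GABA-A receptor, the inhibitory chloride channel of the brain, 13 were inside (81.2%, 57.0 to 93.4%), in 5 stretches on 4 chromosomes. Among them were GABRG1, GABRA2, GABRA4 and GABRB1 in 2.73 Mb of chromosome 4 (chr4:44727501-47461200). The 3 members outside were the rho subunits GABRR1, GABRR2 and GABRR3, which form channels in the retina. Of the non-clustered protocadherins 6 of 10 were inside (60.0%, 31.3 to 83.2%), each in a stretch of its own, 3 on chromosome 4 and 3 on chromosome 13. PCDH15 was cut and PCDH1, PCDH8 and PCDH12 lay outside.

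The contactins and their partners had 6 of 13 members inside (46.2%, 23.2 to 70.9%), but for 2 of these, CNTNAP3 and CNTNAP3B, 48.2% and 46.3% of the words of their stretches occur more than once. Eph receptors and ephrins, guidance molecules that act by cell contact, had 9 of 21 inside (42.9%, 24.5 to 63.5%), among them EPHA8 and EPHB2 in the same stretch of chromosome 1. NRXN3, a presynaptic adhesion gene, was inside, NLGN1 was cut, and NRXN2 and NLGN2 were outside. Of the CSMD genes, CSMD2 and CSMD3 were inside and CSMD1 was cut. For glutamate receptors 5 of 25 (95% interval 8.86 to 39.1%) were wholly inside and 10 were cut, while 14 had their start site inside. Potassium channel genes were inside in 23 of 93 cases (24.7%, 17.1 to 34.4%), with KCNA10, KCNA2 and KCNA3 in the same stretch. Among classical cadherins 6 of 23 were inside (26.1%, 12.5 to 46.5%), CDH7, CDH8, CDH11, CDH12, CDH20 and CDH22, and of 16 serotonin receptors 4 were inside (interval 10.2 to 49.5%). The 3 acetylcholine receptor genes inside, of 21, were the muscarinic CHRM1, CHRM2 and CHRM3. For these 3 families, for glutamate receptors and for sodium and calcium channels (7 of 39), the intervals included the background of 13.6%. This was also so for the semaphorins (4 of 20), the SLITRK, LRRTM and FLRT adhesion proteins (3 of 11) and the Slit and Robo genes (1 of 7).

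Among families with a role in the senses, skin, immunity and reproduction, some had members inside as blocks, so that their counts rest on few stretches, and others had none. None of 14 cystatins (0 to 21.5%) or 4 vomeronasal receptors was inside, and of 42 chemokines 7 were (16.7%, 8.32 to 30.6%), all with intervals that include the background. Of the 4 vomeronasal receptors, 2 were inside at a minimum of 250 kb. Of 414 olfactory receptor genes, 145 were inside (35.0%, 30.6 to 39.7%), and 12 stretches held all of them. The largest blocks were the 38 genes on chromosome 11, which begin with OR52B4, OR52K2, OR52K1 and OR52M1, and 28 genes in 0.764 Mb of chromosome 1 (chr1:247690521-248454680). When the peaks narrower than the median of 2250 bp were left out, the share of olfactory receptor genes rose to 48.1% and that of all protein-coding genes to 40.0%, so that the olfactory receptor share was closer to the background. Under that setting other families moved up, such as bitter taste receptors to 70.8%, glutamate receptors to 72.0% and the leukocyte receptor genes to 100%, while the contactins stayed at 46.2% and the HOX genes at 25.6%, below the 40.0%. With no interval set aside, the share of olfactory receptor genes was 48.1% against 14.1%. Of the bitter taste receptors 5 of 24 were inside (20.8%, 9.24 to 40.5%, which includes the background), 4 of them, TAS2R3, TAS2R4, TAS2R5 and TAS2R38, on chromosome 7. All 28 clustered protocadherins that were inside, of 53 (52.8%, 39.7 to 65.6%), lay in the block on chromosome 5 that begins with PCDHA1, PCDHA2, PCDHA3 and PCDHA4.

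Hair keratin-associated proteins were inside in 33 of 94 cases (35.1%, 26.2 to 45.2%), all on chromosome 21 and with KRTAP24-1, KRTAP25-1, KRTAP26-1 and KRTAP27-1 at the start of the larger block, whereas none of the 55 keratins was inside (0 to 6.53%). At a minimum of 250 kb, 60.6% of the keratin-associated proteins and 32.7% of the keratins were inside, against 29.3% of all protein-coding genes. With only the wider peaks these shares were 52.1% and 45.5%, against 40.0%. In the epidermal differentiation complex, which encodes proteins of the cornified cell envelope, 11 of 30 genes lay in 0.527 Mb of chromosome 1, beginning with LCE5A, LCE3E, LCE3D and LCE3C, and with a minimum of 1 Mb none was inside. The leukocyte receptor genes LILRA2, LILRA1, LILRB1 and LILRB4 and 7 further members formed 11 of 17 (64.7%, 41.3 to 82.7%). Of 46 defensins 23 were inside (50.0%, 36.1 to 63.9%). Among these, 14 lay in a stretch of chromosome 8 with 66.1% of words in more than 1 copy, and 2 in another with 53.1%. All 10 pregnancy-specific glycoproteins of the placenta, such as PSG3, PSG8, PSG1 and PSG6, lay in 0.892 Mb of chromosome 19 (chr19:42606781-43498510). Of the PRAMEF genes 18 of 22 were in the same stretch, beginning with PRAMEF4, PRAMEF10, PRAMEF7 and PRAMEF6, and PRAMEF1, PRAMEF2, PRAMEF11 and PRAMEF12 lay outside. None of 17 type I interferon genes was in a stretch (0 to 18.4%, which includes the background), but with a minimum of 250 kb 16 were inside (94.1%), against 29.3% of all protein-coding genes.

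**Figure D4:**
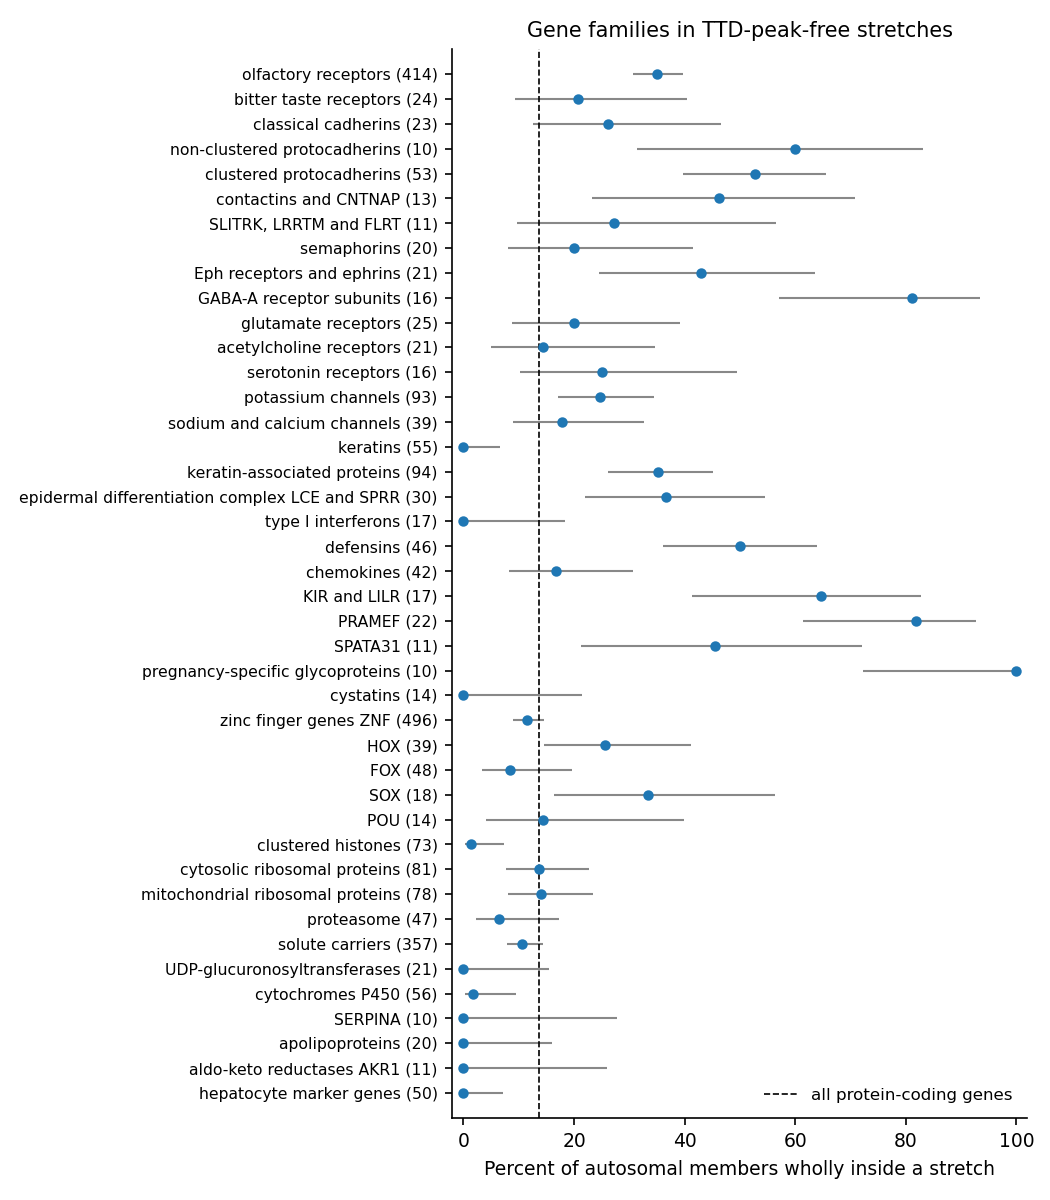
Percent of the autosomal members of each gene family (number in brackets, families of 10 or more) that lay wholly inside a stretch, with 95% Wilson intervals for counting error, against the 13.6% of all protein-coding genes (dashed line). GABA-A receptor subunits (81.2%), PRAMEF (81.8%) and pregnancy-specific glycoproteins (100%) are highest, and hepatocyte marker genes and keratins are at 0. With a minimum of 1 Mb, PRAMEF and pregnancy-specific glycoproteins are at 0 against 4.94% of all protein-coding genes, and 12 of the 16 GABA-A receptor subunits are inside.

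Some developmental transcription factors lay in the stretches. Of the HOX genes, which set position along the body axis, 10 of 39 were inside (25.6%, 14.6 to 41.1%), all from the HOXB cluster, which lay complete with HOXB1, HOXB2, HOXB3 and HOXB4 at its end in 0.628 Mb of chromosome 17 (chr17:48162811-48790660). With a minimum of 1 Mb none was inside, against 4.94% of all protein-coding genes, so that this share was above the background in some settings and below it in others. SOX genes were inside in 6 of 18 cases (33.3%, 16.3 to 56.3%), among them SOX1, SOX8, SOX11 and SOX2 (with only the wider peaks 44.4%, against 40.0% of all protein-coding genes), and forkhead genes in 4 of 48 (8.33%, 3.29 to 19.6%), FOXI1, FOXP2, FOXH1 and FOXD4L6, the last in a stretch with 63.4% of words in more than 1 copy. The zinc finger genes with ZNF symbols were near the background, with 57 of 496 inside (11.5%, 8.98 to 14.6%). Of these, 8 each lay in stretches of 0.884 Mb and 0.506 Mb on chromosome 19, the former beginning with ZNF506, ZNF253, ZNF93 and ZNF682.

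Some genes of basic cell functions lay in the stretches. Cytosolic ribosomal protein genes were inside in 11 of 81 cases (13.6%, 7.76 to 22.7%) and mitochondrial ones in 11 of 78 (14.1%, 8.06 to 23.5%), against 13.6% of all protein-coding genes. The cytosolic ones include RPL3L and RPL10L, paralogues known from muscle and testis. In the gene-dense stretches lay 6 and 7 of these, such as RPS2 and MRPS34 on chromosome 16. The proteasome genes inside were 3 of 47 (6.38%, 2.19 to 17.2%), PSMA3, PSMG3 and the testis paralogue PSMA8. Of 73 genes of the histone list, H1-7, named after its value was seen, was the only one inside (1.37%, 0.242 to 7.36%).

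The lists of liver genes had 1 member, a cytochrome P450 gene, in the stretches. Other genes known from the liver but not on these lists lay wholly inside, such as CREB3L3, C8G, GPT, APCS and TDO2. They were named after their positions were seen, so the counts below hold for the listed genes only. None of 50 hepatocyte marker genes, which encode plasma proteins, liver enzymes and liver transcription factors, was wholly inside or cut (0 to 7.13%). There were also none among 21 UDP-glucuronosyltransferases (0 to 15.5%), 20 apolipoproteins (0 to 16.1%), 11 aldo-keto reductases of the AKR1 group (0 to 25.9%), 10 SERPINA genes (0 to 27.8%) and 7 alcohol dehydrogenases (0 to 35.4%), but the intervals of these 5 families included the background of 13.6%. Of 56 cytochrome P450 genes, the only one inside was CYP2W1 (1.79%, 0.316 to 9.45%), also named after the count was seen. The median distance of a hepatocyte marker gene to the nearest stretch was 1152 kb, against 851 kb for all protein-coding genes, but some were close. The nearest, the fibrinogen beta chain gene FGB, lay 2040 bp from a stretch, FGA, the alpha chain gene, 22155 bp and ALB, the albumin gene, 329953 bp. FOXA1 and HNF4A, transcription factors of the hepatocyte, lay 2731151 and 1540445 bp away. With only the wider peaks, 4 of the 50 genes (8.00%) were inside, still below the 40.0% of all protein-coding genes under that setting.

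Very long genes reached into the stretches. Of 309 autosomal protein-coding genes of 500 kb or more, 61 lay wholly inside, 126 were cut and 122 were outside. Of all 19111 genes, 2603 were inside, 559 cut and 15949 outside. Among the longest genes inside were NRXN3 (1698 kb), NAALADL2 (1372 kb), LRRC4C (1346 kb), LINGO2 (1276 kb), GALNTL6 (1229 kb), CSMD3 (1214 kb), DCC (1196 kb), NRG3 (1112 kb) and CDH12 (1103 kb). LINGO2 and LRRC4C encode neuronal leucine-rich repeat proteins, DCC the receptor for the guidance cue netrin, NRG3 a ligand of the receptor ERBB4 and CDH12 a neuronal cadherin. Among the genes cut by an edge, CNTNAP2 had 2171 kb inside, CSMD1 2042 kb, RBFOX1 1955 kb, LRP1B 1869 kb and PTPRD 1815 kb. This was 94.2% of CNTNAP2, 99.2% of CSMD1 and 98.4% of LRP1B. RBFOX1, a neuronal splicing factor gene, and PTPRD, a receptor phosphatase gene, each had 79.0% of their length inside. In 26 cases the whole stretch lay within a gene, and 24 genes contained such a stretch. TRPS1, next to CSMD3, had 52.9% of its length in the same stretch of 3.37 Mb.

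The stretches were unequally distributed over the chromosomes. They covered 50.4% of the assembled sequence of chromosome 4, 48.8% of chromosome 13, 43.1% of chromosome 8 and 41.9% of chromosome 21, but 4.37% of chromosome 20, 15.5% of chromosome 17 and 17.1% of chromosome 22. Chromosome 20 had 4 stretches in all, the longest of 1.01 Mb. For genes the order was different. On chromosome 19, 464 of 1476 protein-coding genes (31.4%) lay in 24 stretches with a median GC content of 51.1%, and on chromosomes 8 and 21 the share was 25.4% and 22.3%. It was 2.49% on chromosome 2, 2.75% on chromosome 20 and 3.08% on chromosome 14. Chromosomes 19 and 20 are of similar size, with 58.4 and 63.9 Mb assembled, and had 350 and 1469 TTD peaks.

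**Figure D5:**
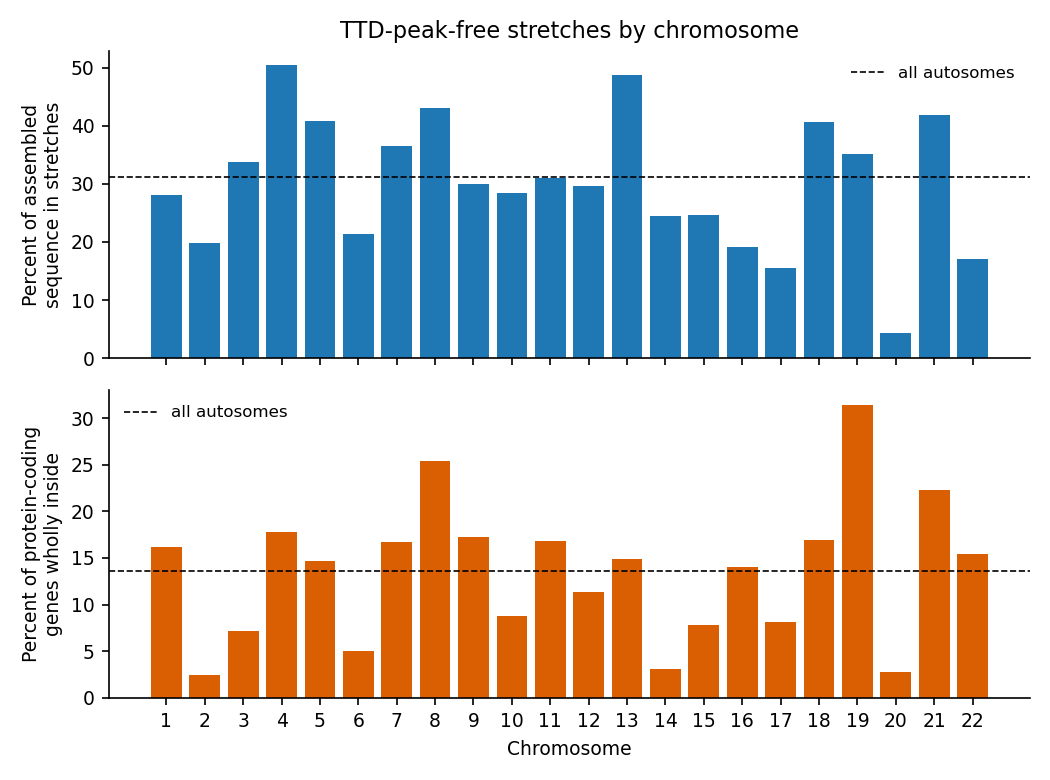
Percent of the assembled sequence of each chromosome that lay in stretches (upper panel) and percent of its protein-coding genes wholly inside (lower panel), with the values over all autosomes as dashed lines (31.2% and 13.6%). Chromosome 4 is highest for sequence at 50.4%, chromosome 19 for genes at 31.4%, and chromosomes 2, 14 and 20 are low in both panels.

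HepG2 cells are aneuploid, and chromosomes 2, 14, 16, 17 and 20 are known as gained in this line from its karyotype, which was not measured here. Stretches covered 18.1% of these 5 chromosomes (range 4.37 to 24.5%) and 34.6% of the other 17 (range 17.1 to 50.4%), and 6.33% against 15.8% of the protein-coding genes lay inside. The number of copies of a chromosome and the chromatin on it cannot be told apart in a list called at a fixed signal cutoff without a named correction for copy number.

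GC content was alike on both sides of the edges, and protein-coding start sites were fewer just inside than just outside. In the 50 kb just inside the edges, GC content was 40.0% and protein-coding start sites numbered 4.98 per Mb, and in the 50 kb just outside, which includes the flanking peaks and, in places, the next stretch, the values were 40.0% and 6.20 per Mb. From 200 to 250 kb inside they were 39.6% and 4.01 per Mb, and from 450 to 500 kb outside 40.3% and 5.78 per Mb. The 1524 peaks at the edges had a median width of 1745 bp (interquartile range 1067 to 2752 bp), against 2280 bp (1390 to 3700 bp) for the other 29642 autosomal peaks. Their median distance to a protein-coding start site was 112 kb, against 43.9 kb.

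Some stretches were parted by a single peak. A stretch lay on each side of 148 peaks, whose median width was 1610 bp and whose median distance to a protein-coding start site was 359 kb. These peaks joined 274 stretches (32.8%) into 126 chains of up to 6. The longest chain spanned 9.37 Mb of chromosome 13 (chr13:81493711-90864480), with 4 stretches and 3 protein-coding genes, the synaptic adhesion genes SLITRK1, SLITRK6 and SLITRK5. Of these 148 peaks, the one with the most stretch sequence beside it, 3680 bp wide (chr4:32699841-32703520), had 5.42 Mb on its left and 2.02 Mb on its right, and the nearest protein-coding start site was 1981312 bp away.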

How the data were processed

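The authors used Trimmomatic 0.38 for trimming and HISAT2 2.2.1 for mapping to hg38, and normalised coverage outside blacklisted regions. Broad peaks were called by MACS2 2.1.1 on the mean of the TTD replicates at fixed cutoffs, without a named input, then curated by hand. The deposited list holds positions and widths in bp, without score, fold or depth. The submitters' processing notes give the versions.

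Intervals, gene positions (GENCODE release 44) and base composition were computed on hg38 with Python 3.11.15, numpy 2.4.6, pandas 2.3.3, scipy 1.17.1 and matplotlib 3.10.9. Assembly gaps were runs of N. Centromeres were taken as blocks of alpha satellite, found from its period of 171 bp and its words of 14 bases, and an interval was set aside when it held at least 100 kb of such a block. Copy number in the reference was measured on a fixed sample of 1 in 32 words of 128 bases from chromosomes 1 to 22, X and Y. Functions were tested on simulated data. Regions and gene lists were chosen with earlier results of these data known, so all values are descriptions without a test. Genes were named by a rule: the 3 longest in the 10 longest stretches, the 10 longest inside, up to 4 per family, and genes that the study shows, with exceptions stated. Some genes that this rule names are not reported here. Alternatives were other length minimums, wider peaks only, other treatment of gaps and other ways to place a gene. Signal tracks, input and H3K9me2 libraries were not used here.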

Additional observations from a re-analysis of the deposited data

How the results depend on the processing

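With a minimum of 250 kb there were 2277 stretches, which held 49.2% of the sequence, 29.3% of protein-coding genes and 52.4% of olfactory receptor genes at a GC content of 39.8%. With a minimum of 1 Mb there were 286, with 17.7%, 4.94%, 13.3% and 37.4%. With only peaks at or above the median width, stretches held 53.6% of the sequence, 40.0% of protein-coding genes and 48.1% of olfactory receptor genes at 40.1% GC, from 1248 stretches. Without peaks under 500 bp the share of sequence was 32.0% and GC content 38.8%. With gaps of 10 kb or more set aside, the share of sequence was 30.4%, that of protein-coding genes 12.9% and GC content 38.8%. With nothing set aside these were 34.5%, 14.1% and 38.8%, and olfactory receptor genes reached 48.1%. Counting genes by start site gave 15.1% and by any base 16.5%. An alternative chosen after seeing the data, without the stretches that had 10% or more multicopy words, gave 30.5% of the sequence, 12.9% of protein-coding genes and 38.7% GC. In each of these settings the share of olfactory receptor genes was above that of all protein-coding genes and the GC content below that of the autosomes, but the distance between those shares was smallest with the wider peaks. With a minimum of 1 Mb, PRAMEF, pregnancy-specific glycoproteins, leukocyte receptor genes, clustered protocadherins, LCE and SPRR genes, bitter taste receptors, HOX and proteasome genes, histones and cytochromes P450 had no member inside. The authors' peak cutoff could not be varied. No paired analysis was possible because the list pools both replicates, and no replicate could be left out for the same reason. Depth per library is unknown, so whether weak signal lies in the stretches was not tested.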
